A study of Zea mays with 20 samples.

Results

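The comparison described here set 2 maize lines unfavorable at bin 6.06, RIL39 and RIL71, against 2 lines that carried the favorable allele at all 4 selected loci, RIL99 and RIL54, at early silking. Arrays were taken by line and stage from the labels, which gave 4 arrays for the bin 6.06 lines and 4 for the favorable lines, 8 of the 20 arrays of the series. All lines are recombinant inbred lines, that is, inbreds derived by repeated selfing from the cross of F288 and F271, and the loci are quantitative trait loci for lignin content and for how readily the cell wall is degraded. Total RNA of the ear internode, the stem segment at the ear, came from irrigated, otherwise untreated plants grown in the field in summer. Each line had 2 arrays at early silking. The other 12 arrays held the same 4 lines at emerging tassel and RIL118, a line unfavorable at bin 9.02, at both stages. The labels give the alleles at the 4 loci only, so a difference between the classes and a difference elsewhere in the genome of these 4 lines cannot be told apart. Nothing in the labels says that the 2 arrays of a line came from separate plants, so p-values measure the spread between arrays, which may be technical.

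At silking the ear internode has ended or is ending its elongation, and its cells lay down secondary walls of cellulose, xylan and lignin. Lignin is made from phenylalanine through the phenylpropanoid and monolignol pathways and is polymerised in the wall by peroxidases and laccases. The internode also stores sucrose, which vacuolar invertase splits into hexoses, and like other maize tissue it makes benzoxazinoids, indole-derived defence compounds kept as glucosides. Bins are numbered segments of the maize genetic map, and bin 6.06 lies on chromosome 6.

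Values are deposited log2 expression per probe set, a set of short oligonucleotides for a transcript, and differences are bin 6.06 lines minus favorable lines on that scale. A value near 2 is the floor of the method, so the size of a difference is limited where a class lies there. A probe set measures hybridisation, so a level and a sequence match at its oligonucleotides are measured together. The share of probe sets above 5 ran from 57.3% to 57.6% in the bin 6.06 arrays and from 57.2% to 57.5% in the favorable arrays. Replicate arrays correlated at 0.975 to 0.982 and at 0.962 to 0.985. The excess of 5′ over 3′ signal in control transcripts, a sign of RNA quality, was -2.45 to -1.12 and -1.85 to -1.13, lowest in RIL39 replicate 2. The labelled RNA amount was 70.856 to 201.72 ng in the bin 6.06 arrays and 53.001 to 81.336 ng in the favorable arrays. The 201.72 ng was that of RIL39 replicate 2 alone, and the other bin 6.06 arrays had 70.856 to 94.393 ng. The mean log2 level of 4 stem secondary-wall markers was 10.84 to 11.45 in the bin 6.06 arrays and 9.57 to 11.50 in the favorable arrays. Of 5 kernel markers on the array, GBSS1, o2 and gz50 were under 4 on all 8 arrays, while emp2 and gz27 were not. Of 6 epidermal markers, gl1, ocl1 and ocl4 were under 4 on all 8, while gl8, fae1 and ocl3 were not. The mean of the kernel markers was 4.95 to 5.14 in the bin 6.06 arrays and 5.03 to 5.47 in the favorable arrays. For the epidermal markers it was 4.29 to 5.07 and 4.36 to 5.00. In tissue RNA fewer cells of a type and less RNA per cell cannot be told apart.

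The classes differed at 967 of 11033 tested probe sets, 8.76% of them, at a Benjamini-Hochberg adjusted p under 0.05 in limma. Of these, 508 (4.6%) were higher in the bin 6.06 lines and 459 (4.16%) were lower. The 4 arrays of one class lay wholly above or below those of the other at 970 tested probe sets (8.79%), 485 of them called. The difference had the same direction in all 4 line pairs for 734 probe sets (6.65%), of which 403 were higher and 331 lower, and it did not for the other 233. Over all tested probe sets the same direction in 4 pairs was seen for 35.2%. Lines of the same class also differed from each other, at 785 probe sets (7.12%) between RIL71 and RIL39 and at 551 (4.99%) between RIL54 and RIL99. RIL39 differed from the favorable lines at 1195 probe sets (10.8%) and RIL71 at 704 (6.38%), comparisons that share the favorable arrays. With line as a random block 109 probe sets passed (0.988%), and with the 4 line means as samples 20 passed (0.181%), 625 having an unadjusted p under 0.05. Among named genes ivr2, bx6 at 1 probe set, rip2 and pcna2 passed with line as a random block, and ivr2 alone with line means. The random block used 1 correlation within lines, 0.32, for all probe sets. With line means the adjusted p in limma was 0.451 for bx6, 0.133 for rip2 and 0.537 for pcna2. The calls of named genes other than ivr2 given below therefore rest wholly or partly on the spread between arrays. Leaving out replicate 2 of RIL99 lowered the class calls to 622. The RIL39 calls fell to 625, 553 or 739 without replicate 1 of RIL39, replicate 2 of RIL39 or replicate 2 of RIL99, and the RIL71 calls to 411 or 404 without replicate 1 or 2 of RIL71. Between RIL71 and RIL39 they fell to 505, 407 or 377 without replicate 1 of RIL71, replicate 2 of RIL71 or replicate 2 of RIL39, and between RIL54 and RIL99 to 300 or 324 without replicate 1 or 2 of RIL99.

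**Figure D1:**
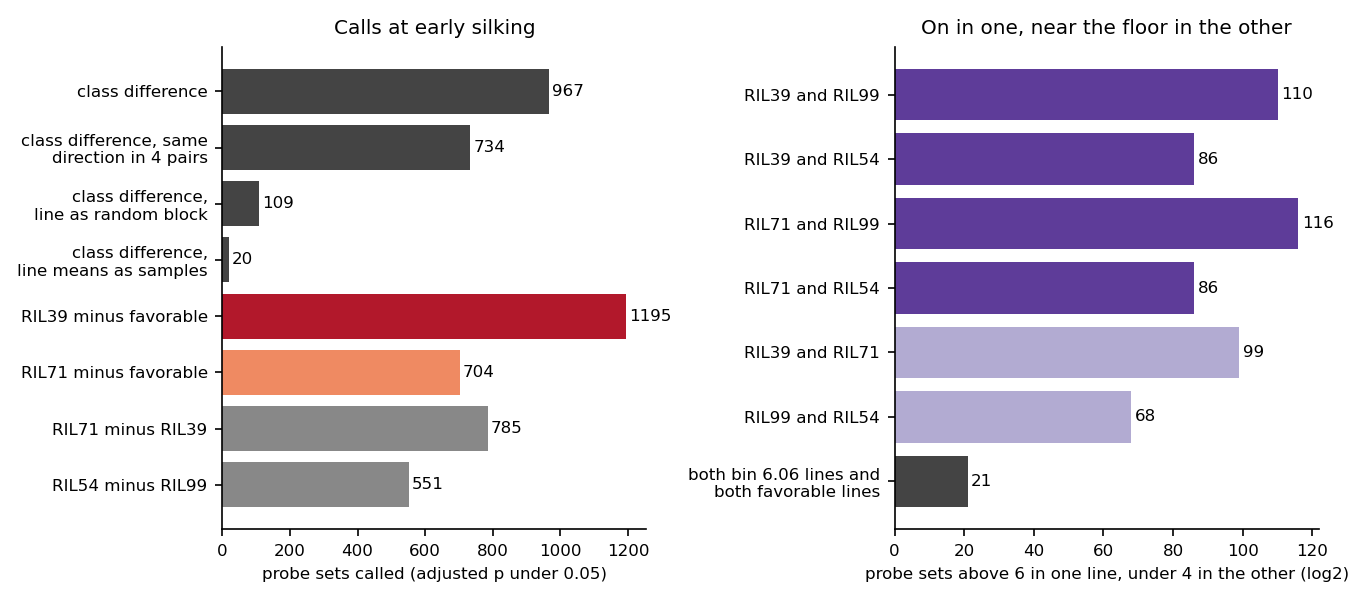
Left, bars give the number of probe sets called at early silking (adjusted p under 0.05) for the class difference, for the class difference under stricter rules, for each bin 6.06 line against the favorable lines and for lines within a class. Right, bars give the number of probe sets above 6 on both arrays of 1 line and under 4 on both arrays of the other (log2), for each pair of lines and, at 21, for both lines of a class together.

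The gene annotation covered only a small share of these calls. It gave a single gene for 960 tested probe sets, 78 of which were called (8.12%), and none for 10073. By name, 54 probe sets of 51 genes were called with the same direction in all 4 line pairs, 26 genes higher and 25 lower in the bin 6.06 lines. The named genes below belong to this group unless stated. Alternatives were run for 45 called probe sets, a different set that also held placeholder genes, unnamed probe sets and hsp22. With the RNA amount as a covariate, 12 of these 45 were no longer called: those of pcna2, gst6, RR7, acco20, abcf1, EF1-A, lim1, tua4, agpsl1, hsp70-5, hac108 and LOC542505 (adjusted p = 0.0544 to 0.0843).

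Vacuolar invertase ivr2 (gene 542324, chromosome 5), which splits stored sucrose, had the largest rise among named genes. Its log2 level was 7.55 and 7.53 in RIL39, 7.71 and 6.86 in RIL71, 2.60 and 1.93 in RIL99, and 1.88 and 2.68 in RIL54. Both bin 6.06 lines were well above both favorable lines, which lay at the floor. The class means were 7.41 ± 0.38 and 2.27 ± 0.43 (SD, n = 4 arrays each), a difference of 5.14 (SE 0.28, adjusted p = 4.53e-08), and the line pairs ran from 5.00 to 5.27. RIL118, favorable at bin 6.06, was also high, at 6.87 and 7.55. Of 7 sucrose genes measured ivr2 alone passed, and 2, ivr2 included, had an unadjusted p under 0.05. The list's differences ran from -1.43 to 5.14, with 3 above and 4 below 0. Their median was -0.03 against 0.00 over all 808 annotated genes. Sucrose synthase sus1, which also splits sucrose, was at 13.89 and 13.92 on average in the bin 6.06 and favorable lines. The cell-wall invertase incw1 was at 7.61 and 7.87 (adjusted p = 0.822), and sucrose phosphate synthase sps1 was at 9.09 and 8.95 (adjusted p = 0.932). In starch synthesis 2 of 7 genes were called higher, with a median of 0.31, against 40 higher and 30 lower of the 808 annotated genes (8.66%). AGPLS3 was not in the same direction in all pairs, at 5.37 and 5.35 in RIL71 and between 2.29 and 2.71 on the other 6 arrays. The ADP-glucose pyrophosphorylase subunit gene agpsl1 rose by 0.77 (SE 0.22, adjusted p = 0.0477). That call was lost without any single array other than RIL54 replicate 1, at adjusted p = 0.0684 to 0.161.

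Defence genes were among the rises. The dioxygenase bx6 (gene 541977, chromosome 4), which oxidises the benzoxazinoid core, was at 11.67 and 10.62 in RIL39, 9.73 and 10.13 in RIL71, 7.40 and 7.41 in RIL99, and 7.66 and 7.99 in RIL54. Every bin 6.06 array was above every favorable array. The difference was 2.92 (SE 0.36, adjusted p = 0.000134), or 7.59-fold, and a second probe set of bx6 gave 2.69 (SE 0.41, adjusted p = 0.000836). The beta-glucosidase glu1 (gene 542414, chromosome 10), which releases the active compounds from their glucosides, was at 9.71 and 9.04 in RIL39, 9.50 and 6.81 in RIL71, 2.08 and 2.09 in RIL99, and 8.23 and 7.41 in RIL54. Only RIL99 was at the floor, and RIL54 overlapped with RIL71. The difference of 3.81 (SE 0.67, adjusted p = 0.00275) thus came from pairs between 0.34 and 7.29, and RIL54 exceeded RIL99 by 5.73 (adjusted p = 0.00255). The indole-forming enzyme bx1 (gene 542117, chromosome 4) was at 10.77 and 10.24, 8.82 and 9.64, 5.69 and 6.90, and 8.49 and 9.39 in RIL39, RIL71, RIL99 and RIL54, and its difference of 2.25 (SE 0.74) did not pass (adjusted p = 0.0899). The related indole-3-glycerol phosphate lyase igl1 differed by 0.17 (adjusted p = 0.472). Thus 2 of the 4 measured benzoxazinoid genes rose and 0 fell, with a median of 2.59 against 0.00 over all annotated genes, 8.66% of which were called.

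The ribosome-inactivating protein gene rip2 (chromosome 7), whose product halts translation, was at 6.60 and 4.52 in RIL39 and at 5.12 and 4.91 in RIL71. All 4 favorable arrays lay at the floor, between 2.15 and 2.18, as did both RIL118 arrays. The difference was 3.13 (SE 0.40, adjusted p = 0.000219). The lipoxygenase lox3 (gene 542495, chromosome 1), which oxidises linoleic and linolenic acid, was at 7.04 and 7.05 in RIL39, 7.64 and 7.05 in RIL71, 5.47 and 4.73 in RIL99, and 5.97 and 5.67 in RIL54. The classes did not overlap, and the difference was 1.74 (SE 0.38, adjusted p = 0.0121). It was the only called gene of 8 in its list. The call was lost without RIL71 replicate 1 or RIL99 replicate 2, at adjusted p = 0.0542 to 0.0621. Of 16 glutathione transferases, which conjugate glutathione to reactive compounds, 1 rose and 2 fell, with a median of 0.02 and 8 on each side of 0, against 8.66% called over all annotated genes. The transferase gst6 rose by 1.79 (SE 0.47, adjusted p = 0.0321), while gst41 fell by 1.59 (SE 0.35, adjusted p = 0.0127) and gst38 fell by 1.16 (SE 0.29, adjusted p = 0.0261). The gst6 call was lost without any 1 of 6 arrays (adjusted p = 0.0685 to 0.132) and kept without RIL54 replicate 2 or RIL71 replicate 2. The gst38 call was lost without any 1 of 6 arrays (adjusted p = 0.0551 to 0.108) and kept without RIL54 replicate 1 or RIL71 replicate 2. The gst41 call was lost without RIL71 replicate 1 (adjusted p = 0.0568). Of 5 pathogenesis-related genes 0 passed, and 0 had an unadjusted p under 0.05.

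**Figure D2:**
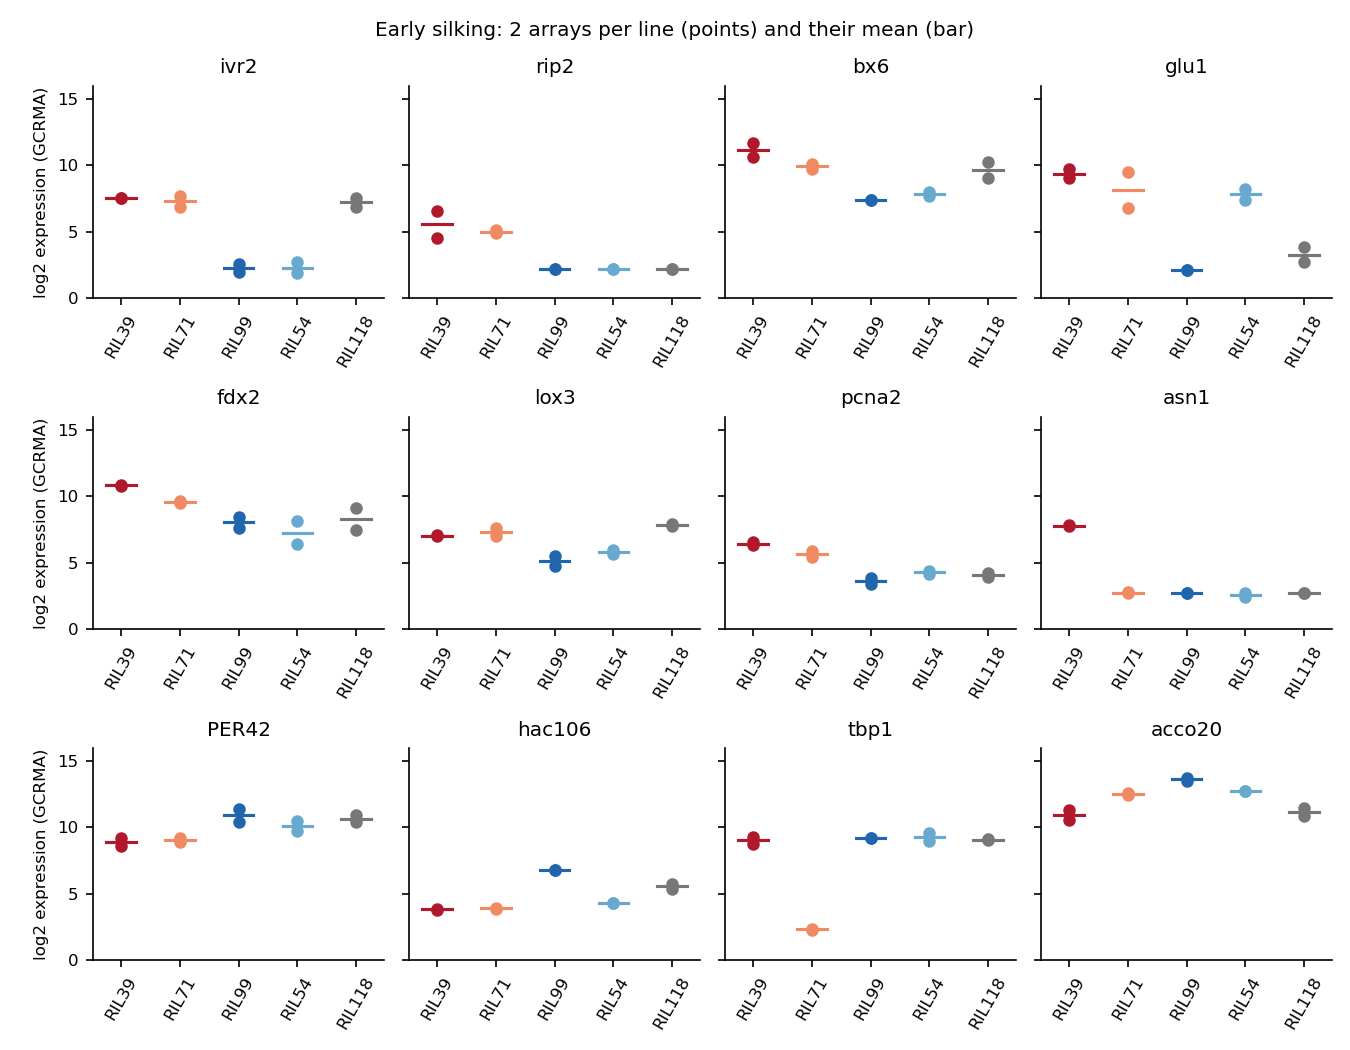
Log2 expression (GCRMA) at early silking for 12 named genes, with points for the 2 arrays of each line and a bar for their mean. For ivr2, rip2, bx6, fdx2, lox3, pcna2, PER42 and acco20 the points of RIL39 and RIL71 do not overlap with those of RIL99 and RIL54, whereas for asn1, tbp1 and glu1 a single line stands apart. For hac106 the classes do not overlap either, but RIL99 stands apart from the other lines.

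The ferredoxin gene fdx2 (gene 541619, chromosome 6), an electron carrier of photosynthesis, was at 10.89 and 10.82 in RIL39, 9.62 and 9.52 in RIL71, 8.48 and 7.59 in RIL99, and 8.12 and 6.43 in RIL54. Both bin 6.06 lines were higher, RIL39 more so. The difference was 2.56 (SE 0.45, adjusted p = 0.00267), or 5.88-fold. It was the only called gene of 13 in light harvesting and electron transfer, whose median was 0.38. Of 7 C4 and Calvin cycle genes 0 passed (2 at an unadjusted p under 0.05), with a median of 0.30. Over all 808 annotated genes 8.66% were called, with a median of 0.00. The 6 leaf photosynthesis markers on the array had a mean level of 10.28 to 11.77 in the bin 6.06 arrays and 9.37 to 10.47 in the favorable arrays, and their part in the fdx2 difference was not tested. In nitrogen assimilation, glutamine synthetase gln5 (chromosome 4) was at 9.43 and 9.36 in RIL39, 9.88 and 9.54 in RIL71, 10.74 and 10.80 in RIL99, and 9.98 and 10.57 in RIL54. It was lower in every bin 6.06 array, by -0.97 on average (SE 0.17, adjusted p = 0.00236). Asparagine synthetase asn1 (chromosome 9) was at 7.75 and 7.82 in RIL39 and between 2.38 and 2.75 on the 6 arrays of the other lines. Its difference of 2.64 (SE 0.28, adjusted p = 3.71e-05) therefore rested on RIL39, with pairs from 0.02 to 5.25.

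A gene of DNA replication and 2 tubulin genes rose, 1 of the tubulin genes only at a probe set other than its brightest. The sliding clamp gene pcna2 (chromosome 4), which holds DNA polymerase on its template, was at 6.55 and 6.30 in RIL39, 5.40 and 5.86 in RIL71, 3.87 and 3.38 in RIL99, and 4.36 and 4.16 in RIL54. The classes did not overlap, and the difference was 2.08 (SE 0.50, adjusted p = 0.0195). The call was lost without any 1 of 6 arrays (adjusted p = 0.0507 to 0.0801) and kept without RIL99 replicate 1 or RIL71 replicate 1. None of the other 3 cell division genes measured passed. The beta-tubulin TUBB2 (gene 542380, chromosome 8), a subunit of the microtubules that guide cellulose deposition, was at 10.02 and 10.04 in RIL39, 10.50 and 10.44 in RIL71, 9.42 and 9.40 in RIL99, and 8.91 and 9.23 in RIL54. It was higher in every bin 6.06 array, by 1.01 (SE 0.15, adjusted p = 0.000574), a 2.01-fold difference. Of 10 tubulin genes it was the only one called at its brightest probe set, with a list median of 0.29. Over all 808 annotated genes 8.66% were called, with a median of 0.00. The alpha-tubulin tua4 rose by 0.43 at another probe set, a call lost without any 1 of 6 arrays (adjusted p = 0.0663 to 0.12) and kept without RIL99 replicate 1 or RIL54 replicate 2.

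All 5 measured secondary-wall cellulose genes had a difference above 0, with a median of 0.76, and 0 of them passed, 2 having an unadjusted p under 0.05. In the primary-wall list 0 of 6 passed, 2 having an unadjusted p under 0.05, with a median of 0.16. The median over all 808 annotated genes was 0.00, and 8.66% of them were called. The synthase gene cesa4 (chromosome 7), whose annotated spelling kept it out of that list and which was chosen after its values were seen, rose by 0.90 (SE 0.23, adjusted p = 0.0252) and 0.97 (SE 0.23, adjusted p = 0.0197) at its 2 probe sets. At the first probe set it was at 11.16 and 11.31 in RIL39, 11.32 and 10.87 in RIL71, 10.23 and 9.83 in RIL99, and 10.03 and 10.96 in RIL54, so RIL54 replicate 2 overlapped with RIL71. Both calls were lost without any 1 of 5 arrays (adjusted p = 0.0538 to 0.114) and kept without RIL99 replicate 1, RIL54 replicate 2 or RIL71 replicate 2. Of 9 expansin and xyloglucan genes, which loosen walls, expB8 was called, at 1.73 (SE 0.47, adjusted p = 0.0373), but not in the same direction in all line pairs. RIL99 was low for it, at 5.17 and 6.57, and RIL54 was at 9.00 and 10.65.

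Among genes tied to lignin, the peroxidase PER42 (gene 100101533, chromosome 7) fell. It was at 9.18 and 8.62 in RIL39, 8.88 and 9.22 in RIL71, 11.38 and 10.45 in RIL99, and 9.76 and 10.52 in RIL54. Every bin 6.06 array was below every favorable array, and RIL118, at 10.95 and 10.38, lay with the favorable lines. The difference was -1.55 (SE 0.29, adjusted p = 0.00413), with line pairs from -1.09 to -2.02. With line as a random block the adjusted p was 0.231, and with line means 0.596. It was the only called member of 3 polymerisation genes, against 8.66% called over all annotated genes. The laccase LAC1 differed by 0.19 (SE 0.32, adjusted p = 0.833) and the peroxidase PER2, near the floor, by -0.07 (SE 0.33, adjusted p = 0.948).

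None of the 5 measured enzymes that make the lignin precursors passed in limma, and 1 had an unadjusted p under 0.05. The differences at the phenylpropanoid entry were -0.02 (SE 0.11, adjusted p = 0.947) for PAL1, which deaminates phenylalanine, and -0.59 (SE 0.28, adjusted p = 0.271) for 4CL, which forms coenzyme A esters. In the monolignol steps they were -0.24 (SE 0.10, adjusted p = 0.177) for the cinnamyl alcohol dehydrogenase BM1 and -0.17 (SE 0.15, adjusted p = 0.606) for the cinnamoyl-CoA reductase cncr1. The reductase ccr2, near the floor, differed by 0.15 (SE 0.74, adjusted p = 0.954). The myb factors known to repress lignin genes differed by -0.20 for myb42 (SE 0.25, adjusted p = 0.737) and 0.18 for MYB1_2 (SE 0.28, adjusted p = 0.804). At emerging tassel the myb42 difference was 1.85 (adjusted p = 0.000264), and the difference between stages was -2.05 (adjusted p = 0.0136).

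Of 13 cytokinin response genes measured 0 rose and 3 fell at the brightest probe set, 10 had a difference below 0, and the median was -0.59 against 0.00 over all annotated genes, 8.66% of which were called. The 3 were the response regulators RR5, RR7 and RR4, which cytokinin induces and which damp its signal. The level of RR5 (gene 541631) was 6.10 and 7.03 in RIL39, 7.03 and 7.43 in RIL71, 8.49 and 8.55 in RIL99, and 7.65 and 7.43 in RIL54. RIL99 was well above the bin 6.06 lines, while RIL54 lay just above RIL71. RR5 differed by -1.13 (SE 0.23, adjusted p = 0.00732). The level of RR7 (gene 541633, chromosome 4) was 5.72 and 5.98 in RIL39, 6.35 and 7.08 in RIL71, 8.82 and 8.98 in RIL99, and 6.72 and 6.84 in RIL54. Here RIL54 overlapped with RIL71, and the difference was -1.56 (SE 0.39, adjusted p = 0.0249). RR4 (gene 541630, chromosome 8) was lower, at -1.31 (SE 0.27, adjusted p = 0.00739) at one probe set and -0.88 (adjusted p = 0.0208) at the other, with levels between 2.46 and 3.64 in the bin 6.06 lines and between 3.10 and 5.15 in the favorable lines. With line as a random block the adjusted p was 0.451 for RR5, 0.522 for RR7 and 0.479 for RR4 at the first probe set. The RR7 call was lost without any single array other than RIL71 replicate 2 (adjusted p = 0.0583 to 0.103). RIL118 was high for these genes, with RR5 at 9.26 and 9.77.

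**Figure D3:**
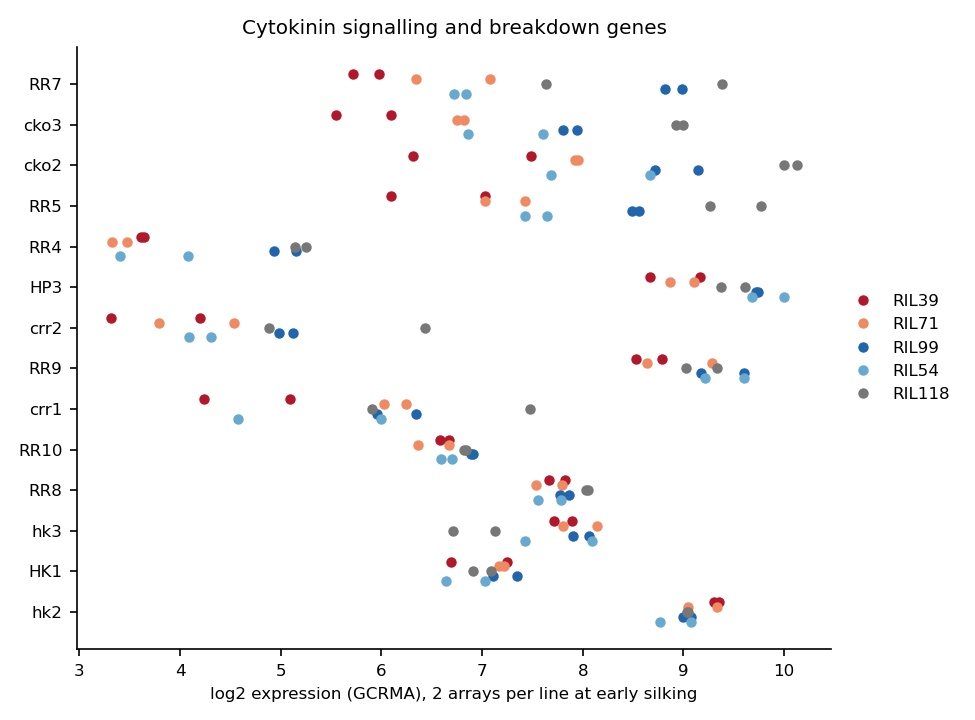
Log2 expression (GCRMA) of 14 genes of cytokinin signalling and breakdown at early silking, 1 point per array and colours for lines, at the brightest probe set of each gene. For RR5 RIL39 and RIL71 lie to the left and RIL99 to the right, with RIL54 between them. For RR7 RIL54 overlaps with RIL71, and for HP3 both favorable lines lie to the right. In the lower rows the lines overlap.

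The phosphotransfer protein HP3 (gene 542596, chromosome 4), which passes the cytokinin signal from receptor to nucleus and was chosen after its values were seen, was at 8.67 and 9.16 in RIL39, 8.87 and 9.10 in RIL71, and at 9.72 and 9.74 in RIL99, with a mean of 9.84 in RIL54. The classes did not overlap, and the difference was -0.83 (SE 0.19, adjusted p = 0.0166). The call was lost without any 1 of 5 arrays (adjusted p = 0.052 to 0.0788) and kept without replicate 2 of RIL54, RIL39 or RIL71. The cytokinin oxidases cko3 and cko2, which break the hormone down and were also chosen after their values were seen, differed by -1.25 (adjusted p = 0.233) and -1.13 (adjusted p = 0.348). The receptor kinase hk2 differed by 0.28 (adjusted p = 0.482).

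Several of the largest falls rested on 1 line. The TATA-binding protein gene tbp1 (gene 542240, chromosome 1) was at 2.37 and 2.23 in RIL71 and between 8.77 and 9.62 on the other 6 arrays. Its difference of -3.60 (SE 0.15, adjusted p = 2.65e-09) combined pairs of -0.19 to -7.00. The alternative oxidase aox1 (gene 542073, chromosome 5) was at 6.25 and 5.97 in RIL54 and between 2.79 and 3.04 elsewhere, which gave -1.62 (SE 0.16, adjusted p = 2.29e-05). The histone acetyltransferase gene hac106 (gene 542083, chromosome 7) was at 6.77 and 6.82 in RIL99, 4.26 and 4.27 in RIL54, and 3.75 to 3.91 in the bin 6.06 lines, a difference of -1.69 (SE 0.19, adjusted p = 5.33e-05). HIT2 (gene 541689, chromosome 4) was near the floor in RIL39, at 2.34 and 2.37, and at 4.64 and 6.34 in RIL71 against 5.76 to 6.41 in the favorable lines, a difference of -2.23 (SE 0.45, adjusted p = 0.00715). The ACC oxidase acco20 (gene 542137, chromosome 4), which makes ethylene, was lower in both bin 6.06 lines, RIL39 more so, while RIL71 lay just below RIL54. It was at 10.58 and 11.36 in RIL39, 12.47 and 12.58 in RIL71, 13.54 and 13.77 in RIL99, and 12.74 and 12.78 in RIL54. The difference was -1.46 (SE 0.39, adjusted p = 0.0332), a call lost without any single array other than RIL39 replicate 2 (adjusted p = 0.0741 to 0.131).

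The remaining named falls were smaller. The phosphate transporter pht1 (chromosome 5) fell by 1.34 (SE 0.29, adjusted p = 0.0101), with 7.52 and 6.46 in RIL39 against 8.57 to 9.30 in the favorable lines and 8.07 and 8.77 in RIL71. The genes annotated zfp30 and GP fell by 1.29 (SE 0.25, adjusted p = 0.00477) and 1.19 (SE 0.24, adjusted p = 0.00691). The heat shock genes hsp70-4 and hsp70-5, which encode protein-folding chaperones, fell by 0.38 and 0.36. The hsp70-4 call was lost without any 1 of 6 arrays (adjusted p = 0.0639 to 0.14), and hsp70-5 was lost without any array other than RIL54 replicate 2 (adjusted p = 0.0604 to 0.211).

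Of the remaining rises, the potassium channel gene ZMK2 (chromosome 8) rose by 1.32 (SE 0.20, adjusted p = 0.000892). Its arrays were at 8.75 to 9.98 in the bin 6.06 lines and 7.81 to 8.86 in the favorable lines, and they overlapped at 1 array of RIL39 and 1 of RIL54. The gene abcf1 rose by 1.11 (SE 0.32, adjusted p = 0.0489), a call lost without any of the 8 arrays (adjusted p = 0.0905 to 0.141). The elongation factor EF1-A rose by 1.07 (SE 0.30, adjusted p = 0.0419) at one probe set and differed by 0.03 (adjusted p = 0.902) at its brightest. Its call was lost without any 1 of 5 arrays (adjusted p = 0.0593 to 0.192) and kept without RIL99 replicate 1, RIL39 replicate 2 or RIL71 replicate 2. As background for the lists that follow, 8.66% of all 808 annotated genes were called, and their median difference was 0.00. Of 15 histone modifier genes 13 had a difference below 0, with a median of -0.23, and 3 were called. These were hac106, lower as above, hda101, a deacetylase gene chosen after its values were seen and lower by -0.38 (adjusted p = 0.0152) without the same direction in every pair, and hac108. The histone acetyltransferase gene hac108 rose by 0.54, a call lost without any 1 of 6 arrays (adjusted p = 0.0512 to 0.0948) and kept without replicate 1 of RIL39 or RIL71. The small heat shock gene hsp22 was called at 1.94 (SE 0.45, adjusted p = 0.0155), with 7.95 and 8.24 in RIL39 and 3.44 and 3.43 in RIL71, so it rested on RIL39 and did not have the same direction in all pairs. That call was lost without RIL54 replicate 1, RIL99 replicate 2 or RIL39 replicate 2 (adjusted p = 0.0532 to 0.0714). Of the other lists, 0 of 14 ribosomal protein genes passed (1 at an unadjusted p under 0.05), 13 of them below 0 with a median of -0.13, and of 20 aquaporins 0 rose and 1, TIP4-4, was called lower without the same direction in every pair. Of these 20, 16 had a difference above 0 and 9 an unadjusted p under 0.05, with a median of 0.26.

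By chromosome, the called share on chromosome 6 was 5.26% (5 of 95 probe sets), against 7.8% over all chromosomes. The share was 16.2% on chromosome 4 (17 of 105) and 13.3% on chromosome 7 (11 of 83). RefSeq's annotation of maize (Zm-B73-REFERENCE-NAM-5.0) placed 72 measured genes on chromosome 6. All 5 called probe sets there had the same direction in the 4 pairs, as did 60 of the 72 called over all chromosomes. The same held for all 7 called on chromosome 1 and all 6 on chromosome 2. In order from the start of the chromosome, fdx2 was number 1, the LIM domain gene lim1 number 7, LOC778432 number 19, LOC542505 number 30 and gst41 number 47. The bins were not placed on this assembly. The gene lim1 rose by 0.70 (SE 0.18, adjusted p = 0.0324), a call lost without any 1 of 6 arrays (adjusted p = 0.0574 to 0.134) and kept without replicate 2 of RIL54 or RIL71. The placeholder genes, both chosen after their values were seen, differed by -0.80 (SE 0.17, adjusted p = 0.0104) for LOC778432 and by 1.48 (SE 0.39, adjusted p = 0.0304) for LOC542505. The latter call was lost without any single array other than RIL54 replicate 2 (adjusted p = 0.0596 to 0.127).

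**Figure D4:**
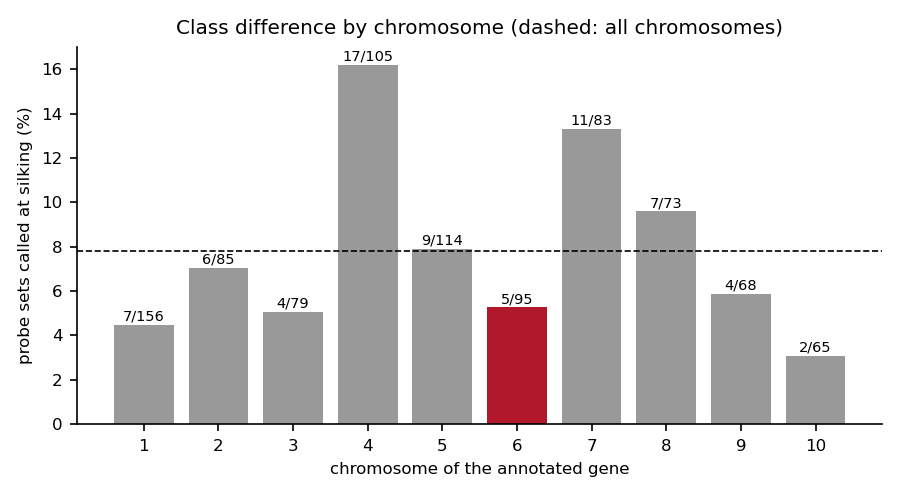
Bars give the percent of tested probe sets with an annotated gene on each chromosome that were called at early silking, with called over measured probe sets above each bar and chromosome 6 in red. The dashed line marks 7.8% over all chromosomes, above the bar of chromosome 6 at 5.26%.

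The difference at silking was set beside that at emerging tassel in the same 4 lines. Of the 734 probe sets with a call and the same direction at silking, 667 (90.9%) had the same sign at tassel and 410 (55.9%) were also called there. The share with the same sign over all tested probe sets is not given here, so the 90.9% has no background beside it. At tassel 1573 probe sets were called (14.3%). Those called at both stages with the same sign, 560, were 57.9% of the silking calls and 35.6% of the tassel calls. The difference changed between the stages at 89 probe sets (0.807%), 46 of which were called at silking. That count was 59 or 55 without tassel replicate 1 or 2 of RIL39, 206 without tassel replicate 1 of RIL54, 152 without tassel replicate 2 of RIL71 and 150 without silking replicate 2 of RIL54. Among named genes, ivr2 was at 11.64 in RIL39, 12.61 in RIL71, 13.06 in RIL99 and 12.56 in RIL54 on average at tassel, a difference of -0.69 (adjusted p = 0.13). All 4 lines were lower at silking than at tassel, the favorable lines at the floor and the bin 6.06 lines at 7.54 in RIL39 and 7.29 in RIL71 on average. In hsp22 the difference at tassel was -2.43 (adjusted p = 0.00285) and the change between stages 4.37 (adjusted p = 0.00461). The gene b3gat3, at the floor at silking, had the third stage change, 2.46 (adjusted p = 5.67e-06), from a tassel difference of -2.69. The differences of bx6, fdx2, PER42, lox3 and acco20 at tassel were 2.40, 2.68, -1.46, 2.08 and -2.08. For pcna2 and RR4 they were 0.33 and 0.19, though for neither was the change between stages called.

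**Figure D5:**
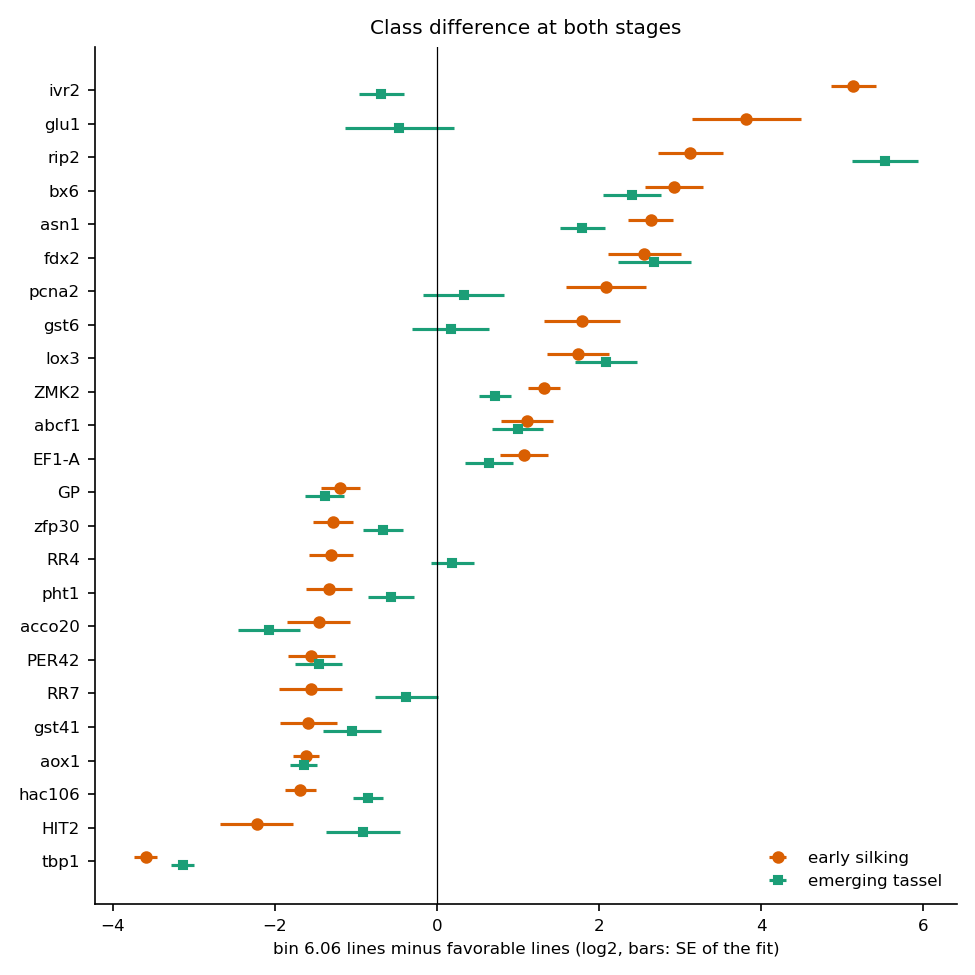
Bin 6.06 lines minus favorable lines (log2) for the 12 largest named rises and 12 largest named falls at early silking (circles) and the same genes at emerging tassel (squares), with bars for the SE of the fit. At tassel ivr2, at -0.69, and glu1, at -0.47, lie left of 0, whereas rip2, bx6, fdx2, lox3 and PER42 lie on the same side at both stages.

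A small set of probe sets was high in one class and near the floor in the other. With thresholds chosen after the data were seen, above 6 on all 4 arrays of a class and under 4 on all 4 of the other, 8 were on in the bin 6.06 lines and 13 in the favorable lines, and 15 of the 21 met the same rule at tassel. Only ivr2 among them had a gene name. Between single lines such contrasts numbered 86 to 116 across the classes, 99 between RIL39 and RIL71 and 68 between RIL99 and RIL54. The largest fall was probe set Zm.3284.2.A1_a_at, at 2.01 to 2.04 in the bin 6.06 arrays and 11.50 to 11.80 in the favorable arrays, a difference of -9.66 (SE 0.13, adjusted p = 8.19e-14). Zm.2773.1.A1_at fell by 7.93 (SE 0.13), while Zm.16524.6.A1_at rose by 8.03 (SE 0.20) and Zm.12414.1.A1_at by 5.79 (SE 0.10). RIL118, favorable at bin 6.06, was on for 12 of the 13 probe sets on in the favorable lines. Of the 8 on in the bin 6.06 lines, it was on for 4 and off for 4. Over the 734 same-direction calls its mean was nearer the favorable lines for 462 (62.9%) and nearer the bin 6.06 lines for 272. The same share over all tested probe sets is not given here.

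Within a class, the 3 named genes with the smallest p between RIL71 and RIL39 were rpl30, tbp1 and H1, and those between RIL54 and RIL99 were rpl30, H1 and maf1. The ribosomal protein gene rpl30 was at 8.68 and 8.27 in RIL39 and 8.72 and 9.00 in RIL99, but between 2.12 and 2.17 in RIL71 and RIL54. It thus split the 4 lines across the classes, with a class difference of -0.19 (adjusted p = 0.408). The same split was seen at 1 probe set of H1, at 8.30 in RIL39 against 3.62 and 3.55 in RIL71. The gene maf1 split them the other way, high in RIL39 and RIL54.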

How the data were processed

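The values are log2 expression per probe set, made with GCRMA by the authors and deposited as a series table, per the submitters' processing notes; its version is not given in the sources used here. They ran from 1.37 to 15.16 and were used untransformed. Of 17555 maize probe sets, 11033 were above 5 in at least 2 of 20 arrays and were tested; 179 control probe sets were left out. limma 3.58.1 (R 4.3.3) fitted 10 line and stage means over all 20 arrays (10 residual and 2.37 prior degrees of freedom), with Benjamini-Hochberg adjustment at 0.05. The number of arrays limits the precision. Where 1 array was left out, the lone array of its group was assumed to vary like the others. Replicate numbers were not used to pair the arrays in the main fit. Correlations of replicate differences ran from -0.349 to 0.495 over 6 pairs of groups. They were negative in the pairs with RIL39 and 0.194 to 0.495 among RIL71, RIL99 and RIL54. Gene names and chromosomes came from platform annotation and RefSeq. The genes, lists and comparisons were chosen with earlier results of these data known.

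Named genes were called probe sets with a single gene and the same direction in all 4 line pairs: the 12 largest rises and 12 largest falls, up to 12 on chromosome 6, up to 4 of each list, all measured lignin and benzoxazinoid genes, the 3 smallest p of the stage change and of each within-class difference, and 2 unnamed probe sets each way. Placeholder names did not count as names, a reading settled after values were seen; exceptions are marked in the text. List members are counted at the brightest probe set of a gene. Alternatives were a replicate block, no filter, a filter at 7, quantile normalization, median centring, only the arrays compared, RNA amount as a covariate, leaving out each array, line as a random block and line means as samples. In simulated data for the class comparison, with 11033 probe sets of which 200 were changed, 67% of changes of 1 and 98% of changes of 2 were recovered, and 2.37% of calls were false. In the simulation the lines of a class did not differ, unlike the measured lines. The 2.37% therefore does not cover differences between lines.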

Additional observations from a re-analysis of the deposited data

Results flagged for a closer look

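For some of the genes and probe sets named above the class difference changed between the stages, or the bin 6.06 lines differed from each other, by the test of that difference. The class difference at silking minus that at tassel was 5.82 for ivr2 (adjusted p = 5.67e-06), 2.46 for b3gat3 (adjusted p = 5.67e-06), -2.05 for myb42 (adjusted p = 0.0136), 4.37 for hsp22 (adjusted p = 0.00461) and -1.18 for Zm.2773.1.A1_at (adjusted p = 0.00802). The difference from the favorable lines in RIL71 minus that in RIL39 was -6.73 for tbp1 (adjusted p = 1.53e-10), -6.33 for rpl30 (adjusted p = 2.04e-11), -5.27 for maf1 (adjusted p = 1.27e-07), -4.72 for H1 (adjusted p = 8.64e-10), -5.07 for asn1 (adjusted p = 2.21e-06), -4.66 for hsp22 (adjusted p = 0.000433), 3.14 for HIT2 (adjusted p = 0.00931), 1.42 for myb42 (adjusted p = 0.0265) and 1.85 for gst41 (adjusted p = 0.0435). With 2 arrays per line and stage, single arrays were not tested as outliers.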

How the results depend on the processing

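With line as a random block the 967 class calls became 109, and with line means as samples 20. The stage change, 89 probe sets, gave 47 with the filter at 7 and 138 with only the arrays compared. Every other count stayed within 1.5 times its value under the alternatives that kept all arrays. With each array left out in turn, the counts ran from 622 to 960 for the class difference, 553 to 1132 for RIL39 and 404 to 822 for RIL71 against the favorable lines, 55 to 206 for the stage change, 377 to 822 between RIL71 and RIL39 and 300 to 530 between RIL54 and RIL99. A replicate block gave 918 class calls, and 1121, 650, 86, 721 and 518 for the other comparisons in that order. Replicate differences of RIL39 correlated negatively with those of the other lines, while those of RIL71, RIL99 and RIL54 correlated positively with each other. Whether the replicate numbers pair the arrays therefore cannot be told. Of the genes and probe sets selected for naming, none called in the main fit or in the alternative changed direction between them. Changes of sign without a call were not counted, and the other tested probe sets were not checked for direction. Of the 45 called probe sets run through the alternatives, 23 kept the call in every alternative with arrays as the unit, 8 with line as a random block (ivr2, bx6 at 1 probe set, rip2, pcna2 and the 4 unnamed ones) and 5 with line means (ivr2 and the unnamed ones). The calls of expB8, AGPLS3, TIP4-4 and hda101 were not among the 45. Of these 45, 12 were lost with the RNA amount as a covariate, as named above. With only the arrays compared 10 were lost, those of pht1, RR4, EF1-A, lim1, tua4, hsp70-4, hsp70-5, hac108 and both of cesa4 (adjusted p = 0.0518 to 0.117), and with no filter 9, those of gst6, gst38, RR7, acco20, abcf1, EF1-A, lim1, agpsl1 and LOC542505 (0.0518 to 0.0931). The replicate block ended the calls of abcf1, agpsl1 and hsp70-5 (0.0521 to 0.0643), and quantile normalization and median centring that of hsp70-5 (0.126 and 0.061). GCRMA's floor limits the size of differences such as those of ivr2 and rip2.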
